A study of Mus musculus with 3 samples.

Results

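Klf1, Gata1, Nfe2, Hemgn, Ermap, Rhd, Epb42 and Epor encode transcription regulators, membrane proteins and a cytokine receptor of the red blood cell lineage. They were taken as the array features whose platform annotation gives exactly 1 gene symbol equal to a listed name, with a log2 ratio on every array. All 8 listed genes had such a feature (9 features, 2 of them for Nfe2), out of 14433 named genes and 19015 rows in all. The 8 genes were selected on the log2 ratios of these same 3 arrays, so the values below describe them and no test is given for them. The material was fetal kidney at 13.5 days post coitum (dpc) and metanephroi, the rudiments of the permanent kidney, at 11.5 dpc. Both came from CD1 mouse embryos labelled normal, with no treatment named, were microdissected and pooled over both sexes, and were hybridised together on each of 3 arrays of the Compugen mouse oligonucleotide set. The number of embryos per pool, and whether the arrays carried separate RNA extracts, are not given in the sources used here; the spread between arrays may therefore be technical. The log2 ratio is most likely that of 11.5 over 13.5 dpc, since the 11.5 dpc material is listed as channel 1 and as the first age of the comparison; with this reading a positive value means a lower level at 13.5 dpc. Every direction below turns if the ratio runs the other way.

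Red blood cells form in successive waves. Large nucleated primitive cells made in the yolk sac circulate first, and smaller definitive cells from the fetal liver replace them; in the kidney rudiment red cells arrive with the blood and are not a tissue of its own. Gata1 is a zinc-finger factor required for red cell and platelet precursors, and Klf1 is a zinc-finger factor that switches on globin, haem and membrane genes in red cells. Nfe2 is the large subunit of a factor that pairs with small Maf proteins at globin control regions, and Hemgn is a nuclear protein of blood precursors that Gata1 activates. Ermap and Rhd are red cell surface proteins that carry blood groups in humans, Epb42 ties the anion exchanger to the membrane skeleton, and Epor is the receptor of erythropoietin, the hormone that keeps red cell precursors alive.

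Klf1, Ermap, Rhd and Hemgn had positive ratios on all 3 arrays, that is, lower levels at 13.5 than at 11.5 dpc. Ermap was 11.4-fold, Klf1 4.52-fold, Rhd 3.11-fold and Hemgn 2.01-fold lower at 13.5 dpc by their mean log2 ratios. Gata1, Nfe2, Epb42 and Epor did not keep 1 sign over the arrays. Gata1 had a mean of the opposite sign, and the 2 features of Nfe2 disagreed. The median of the 8 mean log2 ratios was 0.86, and that of all 19015 rows was -0.0084. Positive values on all 3 arrays were found for 4 of the 8 genes, against 16.8% of all rows, and negative values on all 3 arrays for 0 of the 8, against 18.5% of all rows. At least 2-fold on every array in the positive direction were 3 of the 8, Klf1, Ermap and Rhd, against 0.247% of all rows; in the negative direction it was 0 of the 8, against 0.436%. With the ratios of array 3 turned in sign, 1 of the 8 (Nfe2) would be positive on all arrays, against 18.9% of all rows. Gata1 alone would be negative on all arrays, against 10.3%. Nfe2 would be so only as the average of its features, neither of which alone would keep 1 sign. Nothing is read from these shares, because the genes were picked from the same values. In limma's test of every row against 0, 0% of the 19015 rows passed an adjusted p of 0.05 (0 rows, with 1757 at an unadjusted p under 0.05); without limma's moderation of the variances the count was again 0, and 1829 rows lay under 0.05 before adjustment. Because the tissue is a mixture of cells, fewer red cells and less of a transcript per red cell cannot be told apart.

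A short motif bound by Gata factors was common in the promoters of these genes. They were listed as genes of the red cell lineage, which requires Gata1, so the share of windows with the motif is not independent of that choice. Windows from 250 bases before to 50 bases after the annotated transcript start were taken from RefSeq on mouse build GRCm38.p6, in which 7 of the 8 genes matched by symbol. The motif was searched on both strands, as AGATAA or AGATAG with A before the core and as TGATAA or TGATAG with T before it. It was present in the windows of Klf1, Ermap, Rhd, Hemgn, Epb42 and Epor, 6 of 7, and in 29.8% of all 32851 windows of that length. The windows of the 4 genes with positive ratios on every array, and that of Gata1, are printed 5′ to 3′ on the gene's strand, with the motif in capitals (on Klf1 and Ermap as its reverse complement TTATCA), to show where it lies and that the window of Gata1 does not hold these letters. They are chr8:84901732-84902031 on the + strand for Klf1, chr4:119189946-119190245 on the - strand for Ermap, chr4:134864286-134864585 on the + strand for Rhd, chr4:46404134-46404433 on the - strand for Hemgn and chrX:7967861-7968160 on the - strand for Gata1.
Klf1: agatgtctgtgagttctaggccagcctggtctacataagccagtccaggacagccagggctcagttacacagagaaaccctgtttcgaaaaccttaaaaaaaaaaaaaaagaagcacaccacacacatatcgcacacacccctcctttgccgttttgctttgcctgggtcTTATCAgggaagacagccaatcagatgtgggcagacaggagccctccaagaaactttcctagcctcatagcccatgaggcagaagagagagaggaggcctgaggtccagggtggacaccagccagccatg
Ermap: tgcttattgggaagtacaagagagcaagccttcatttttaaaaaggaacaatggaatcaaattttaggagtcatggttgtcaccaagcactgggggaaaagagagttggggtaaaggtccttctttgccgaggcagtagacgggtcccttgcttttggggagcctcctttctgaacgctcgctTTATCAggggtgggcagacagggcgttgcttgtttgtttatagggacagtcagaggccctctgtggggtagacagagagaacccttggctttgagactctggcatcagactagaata
Rhd: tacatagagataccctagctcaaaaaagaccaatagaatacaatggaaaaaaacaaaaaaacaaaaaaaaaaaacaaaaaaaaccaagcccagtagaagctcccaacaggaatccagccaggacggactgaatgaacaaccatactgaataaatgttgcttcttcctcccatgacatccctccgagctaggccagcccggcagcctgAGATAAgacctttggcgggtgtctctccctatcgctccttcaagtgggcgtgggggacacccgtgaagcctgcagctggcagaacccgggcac
Hemgn: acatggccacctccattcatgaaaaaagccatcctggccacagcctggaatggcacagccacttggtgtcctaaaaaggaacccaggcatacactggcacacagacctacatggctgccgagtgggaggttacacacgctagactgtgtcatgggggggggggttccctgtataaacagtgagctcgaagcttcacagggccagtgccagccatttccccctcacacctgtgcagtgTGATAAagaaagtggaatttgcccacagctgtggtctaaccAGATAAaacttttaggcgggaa
Gata1: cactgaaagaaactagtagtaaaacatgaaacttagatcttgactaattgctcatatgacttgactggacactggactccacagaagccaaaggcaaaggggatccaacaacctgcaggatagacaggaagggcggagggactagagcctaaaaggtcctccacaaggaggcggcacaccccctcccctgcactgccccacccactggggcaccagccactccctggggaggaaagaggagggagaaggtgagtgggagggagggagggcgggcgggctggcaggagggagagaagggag

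The motif spans bases -80 to -75 before the start of Klf1, -67 to -62 of Ermap and -43 to -38 of Rhd. Hemgn has it at -13 to -8 and again at 29 to 34 after the start. In Epor it lies at -54 to -49 and in Epb42 farther out, at -226 to -221. The window of Gata1 holds instead 3 matches to CCNCNCCC, a motif of the Klf and Sp families, between -71 and -27. That motif was present in 4 of the 7 windows (Hemgn, Rhd, Epor and Gata1) and in 49.5% of all windows; the matches of Hemgn overlap in 1 run of G, and those of Epor overlap in pairs. The E-box CAGNTG was present in 5 of 7 windows and 51.4% of all, and TGANTCA, the core of the Nfe2 and AP-1 motifs, in 0 of 7 and 7.81% of all. No match to the Gata motif overlaps a match to another motif in these windows. A match describes the letters in the window and does not show that a factor binds there.

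**Figure D1:**
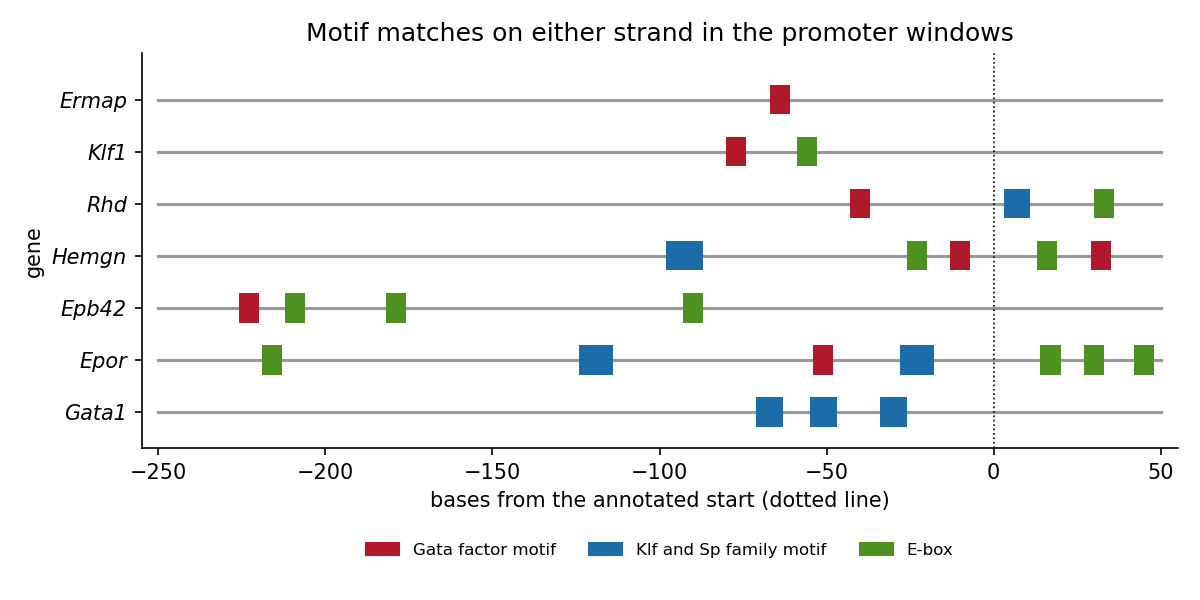
Matches to 3 motifs on either strand in the promoter windows of 7 genes, in bases from the annotated start, ordered from the highest mean log2 ratio (top) to the lowest. A Gata factor motif (red) is present in the 6 upper windows and not in that of Gata1, which holds 3 Klf and Sp family motifs (blue); E-boxes are green.

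Among the transcription regulators, Klf1 had log2 ratios of 1.99, 2.42 and 2.12 on arrays 1, 2 and 3. The 3 arrays lay within 0.44 log2 units of each other, and the mean was 2.18 ± 0.22 (SD, n = 3 arrays). By its mean Klf1 ranked 30 of 19015 rows, and 621 with array 3 turned. It ranked 48 and 39 on arrays 1 and 2 and 637 on array 3, where the ratios of all rows spread most widely (SD 0.93 over the 19015 rows, against 0.56 and 0.75 on arrays 1 and 2). Hemgn had 0.70, 1.09 and 1.24, with a mean of 1.01 ± 0.28; array 1 alone fell short of 2-fold, so Hemgn lies just outside the 2-fold count.

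Gata1 had log2 ratios of -1.54, -0.72 and 0.059. Arrays 1 and 2, with the dye order red/green, gave a higher level at 13.5 dpc, and array 3, with the order green/red, gave nearly equal levels. The mean was -0.73 ± 0.80, an SD larger than the mean, and corresponds to a 1.66-fold higher level at 13.5 dpc. Only 0.862% of rows lay lower than Gata1 on array 1. On array 3, by contrast, 62.9% of rows lay below it. Without array 1 the mean of Gata1 was -0.33, and without array 3 it was -1.13. Gata1 and Klf1 therefore lay on opposite sides of 0 on arrays 1 and 2, and on the same side on array 3.

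Nfe2 was read by features at positions 836 and 7367 of the oligonucleotide library. The feature at 836 had log2 ratios of 2.29, 2.24 and 0.69, positive on every array, with a mean of 1.74 ± 0.91. The feature at 7367 had -0.56, 0.95 and -1.29, with a mean of -0.30 ± 1.14. The first exceeded the second by 2.85, 1.29 and 1.98 log2 units on arrays 1, 2 and 3. Among 846 genes read by exactly 2 features, the median difference between the feature means was 0.32, and 9 genes had a larger difference than the 2.04 of Nfe2. Averaged, as all features of a gene were, Nfe2 had 0.87, 1.59 and -0.30, a mean of 0.72 ± 0.96. Which feature follows the transcript was not tested, so no direction is given for Nfe2.

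Among the membrane proteins, Ermap had log2 ratios of 3.39, 3.80 and 3.34, a mean of 3.51 ± 0.25. It had the highest value of the 8 genes on each array as deposited and ranked 3 of 19015 rows by its mean, and 60 with array 3 turned. Rhd had 1.59, 1.91 and 1.42, a mean of 1.64 ± 0.25, and ranked 130, and 832 with array 3 turned. On each array, as deposited, the order was Ermap, Klf1 and Rhd, and neighbours in it did not overlap over the arrays. Ermap's lowest value was 3.34 and Klf1's highest 2.42. Klf1's lowest was 1.99 and Rhd's highest 1.91, closer together than the SD of either gene. Ratios of different features are compared here only as differences between ages, since a ratio says nothing of which gene had more RNA.

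Epb42 had log2 ratios of -0.0029, 0.76 and 0.038, a mean of 0.27 ± 0.43. Its positive mean came from array 2, and the other arrays read nearly equal levels at 13.5 and 11.5 dpc; without array 2 the mean was 0.018. Epor had -0.14, 0.19 and 0.27, a mean of 0.10 ± 0.22. For Epb42 and Epor the SD between arrays exceeded the mean, so neither age was higher beyond the spread. Epb42 and Epor lay apart from Ermap and Rhd, whose lowest values, 3.34 and 1.42, were above the highest of Epb42 (0.76) and Epor (0.27).

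**Figure D2:**
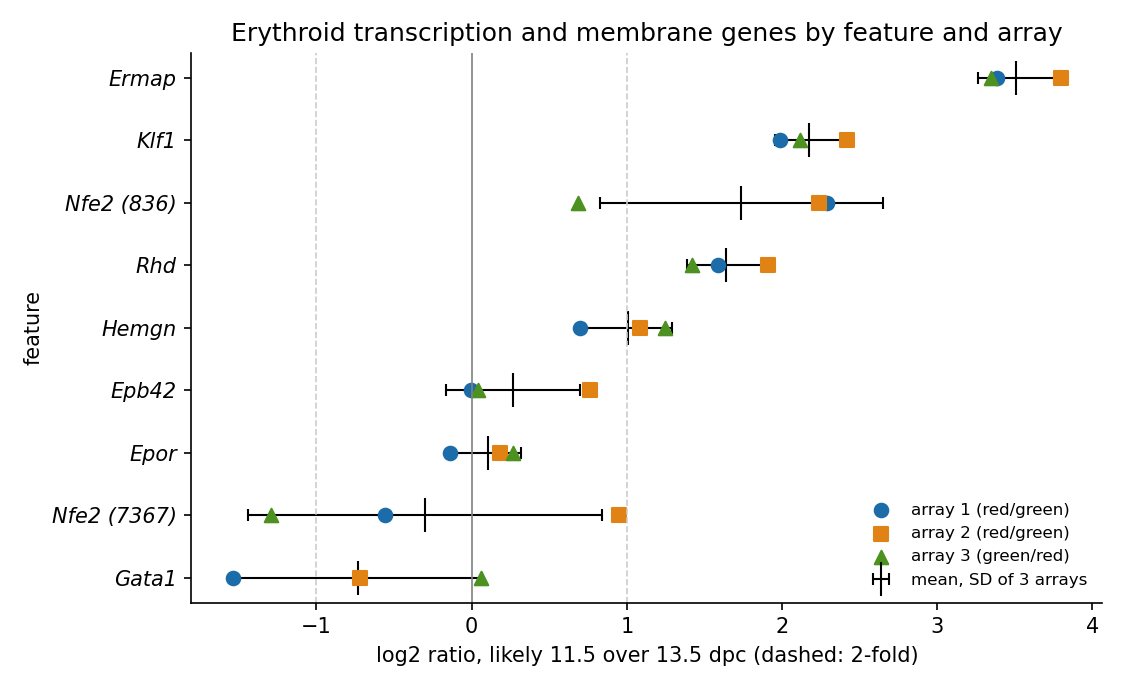
Log2 ratios (likely 11.5 over 13.5 dpc) of the 9 features of the 8 genes on the 3 arrays, with the mean and SD over arrays as black bars and 2-fold as dashed lines; numbers after Nfe2 are library positions. The 3 arrays lie close together for Ermap, Klf1 and Rhd, all past 2-fold, while Gata1 and both Nfe2 features spread over more than 1.5 log2 units.

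Array 3 is the 1 array with the green/red order, so dye order and that array cannot be told apart. Klf1 had a mean of 2.20 on the red/green arrays and 2.12 on the green/red array, and Ermap 3.59 and 3.34. Rhd had 1.75 and 1.42, and Hemgn 0.89 and 1.24. For these 4 genes both dye orders gave the same direction. Gata1 had -1.13 on the red/green arrays and 0.059 on the green/red array, but the red/green arrays themselves differed (-1.54 and -0.72). For Nfe2 the same values were 1.23 and -0.30. Array 3 is labelled with the opposite dye order, and whether its deposited ratios were already turned to the common direction was not stated in any label read here. Across all rows its Pearson correlation was 0.12 with array 1 and -0.12 with array 2, which does not settle its orientation. As deposited, 130 rows were at least 2-fold with 1 sign on all arrays, and 42 with array 3 turned. The lowest adjusted p from limma was 0.197 as deposited and 0.76 turned. Rows positive on all 3 arrays were 16.8% as deposited and 18.9% turned, and rows negative on all 3 were 18.5% and 10.3%. Which orientation is right was not tested. If array 3 were turned, the genes that keep 1 sign would be others. Gata1 would be negative on all 3 arrays and Nfe2, averaged over its features, positive on all 3, though neither Nfe2 feature alone would be. Ermap, Klf1, Rhd and Hemgn would be mixed in sign, with means of 1.28, 0.76, 0.69 and 0.18 in that order, and 0 of the 8 genes would be at least 2-fold with 1 sign on all arrays.

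**Figure D3:**
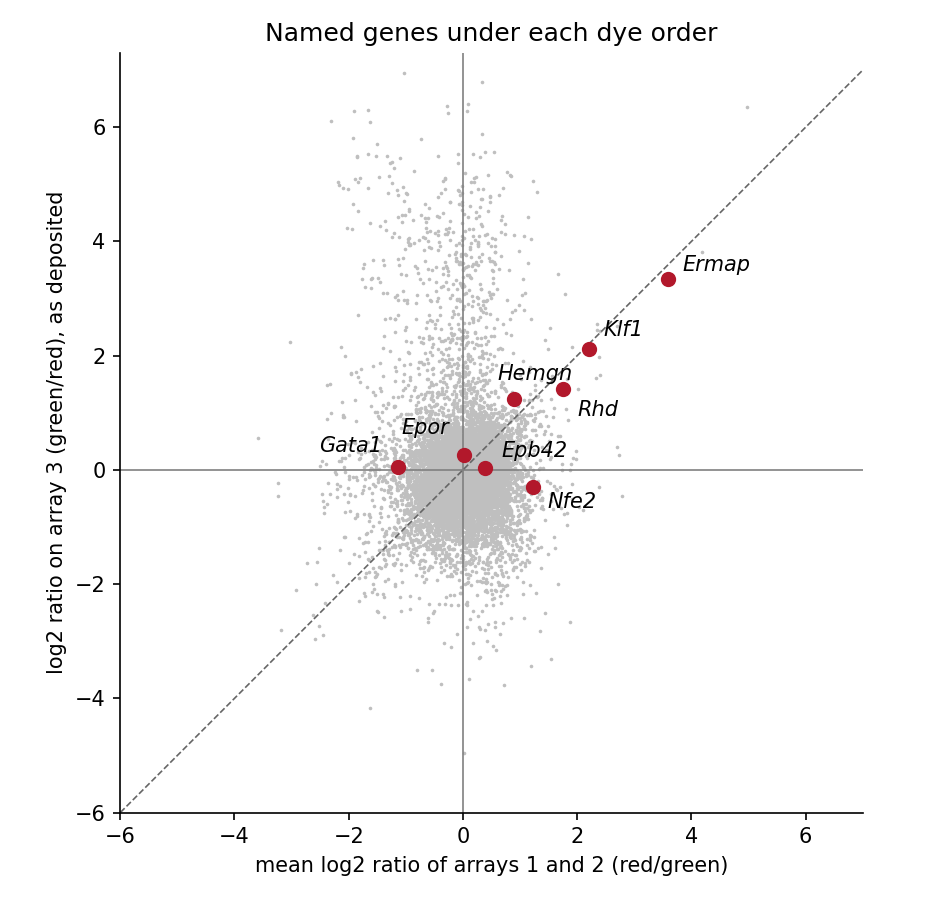
Log2 ratio of each named gene (grey) and of the 8 erythroid genes (red) on array 3 (y axis, green/red, as deposited) against its mean on arrays 1 and 2 (x axis, red/green); the dashed line marks equal values. Ermap, Klf1, Rhd and Hemgn lie near the line in the upper right, Gata1 and Nfe2 lie away from it, and Epb42 and Epor lie among the bulk of genes.

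The partners of these regulators did not share 1 direction. Of all rows, 16.8% were positive and 18.5% negative on all 3 arrays (18.9% and 10.3% with array 3 turned). The sign counts of every list below stand beside these shares. Their counts at an unadjusted p under 0.05 stand beside 793 positive and 964 negative of all 19015 rows. Of 24 other erythroid transcription regulators with a row, 7 were positive and 4 negative on all 3 arrays, 0 passed limma's adjusted threshold (2 positive and 1 negative at an unadjusted p under 0.05), and the median log2 ratio was 0.072. Gfi1b, a repressor that works with Gata1, was the 1 regulator at least 2-fold on every array, with 1.30, 1.44 and 1.58 and a mean of 1.44 ± 0.14. Bcl11a, which silences embryonic globin, had 0.56, 0.26 and 1.79. Runx1, needed to form blood stem cells, had -0.27, -2.24 and -0.29, and E2f4, a cell cycle factor, had -0.60, -0.55 and -1.30. The adjusted p from limma was 0.326 for Gfi1b and between 0.516 and 0.597 for the other 3.

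Red cell membrane, skeleton and blood group genes other than Ermap, Rhd and Epb42 were close to the background. Of 25 with a row, 4 were positive and 5 negative on all arrays, 0 passed limma's threshold (2 positive and 3 negative unadjusted) and the median was -0.034, which turned positive without array 3 or with it turned. Icam4, a red cell adhesion protein, had 1.03, 1.04 and 0.93, a mean of 1.00 ± 0.06. Cd24a, a surface protein also found on many epithelia, had 0.89, 1.18 and 3.06. Stom, stomatin of the red cell membrane, had -0.47, -0.74 and -1.75, and Bcam, a laminin receptor also of epithelia, had -1.33, -0.48 and -0.51. The limma adjusted p was 0.359 for Icam4 and at least 0.516 for the other 3.

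Genes of erythropoietin receptor signalling also gave no common direction. Of 17 with a row, 4 were positive and 4 negative on all arrays, 0 passed limma's threshold (1 positive and 1 negative unadjusted) and the median was 0.041, which turned negative without array 1 or without array 2. Socs2, an inhibitor of cytokine signalling, had a mean of -0.75 ± 0.14. The survival gene Bcl2l1 had 0.43 ± 0.22, its antagonist Bcl2l11 had 0.50 ± 0.06, and the kinase gene Pim1 had 0.46 ± 0.41. Their limma adjusted p lay between 0.429 and 0.581.

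Globin chains and the genes of haem synthesis were read as the products that red cells make in bulk. All 4 globin chains with a row, of 11 listed genes, were positive on every array and the median was 0.82, with 0 past limma's threshold (2 positive unadjusted). With array 3 turned all 4 were mixed in sign and the median was 0.34. The chains Hbb-b1, Hbb-b2, Hbb-bs, Hbb-bt and Hba-a2 had no row, so Hbb-bh1 and Hbb-y were the only beta-type chains read. The embryonic chain Hbb-bh1 had 3.13, 5.26 and 3.81, while Hbb-y had 0.19, 2.23 and 1.10. Globin chains resemble each other in sequence, and whether the features tell them apart was not tested. The alpha-type chains had 0.47 ± 0.20 for Hba-x and 0.33 ± 0.16 for Hba-a1. Of 16 genes of haem synthesis and red cell iron, 5 were positive and 2 negative on all arrays, the other 9 were mixed, 0 passed limma's threshold (2 positive unadjusted) and the median was 0.13, or 0.033 without array 2. Alas2, the first enzyme of haem synthesis in red cells, had 1.28 ± 0.31, and Alad, the next enzyme, had -0.70 ± 0.82. Blvrb, a biliverdin reductase, had 1.23 ± 0.20, and the mitochondrial carrier Slc25a38 had 1.36 ± 1.96, with 3.61 on array 3 against 0.062 and 0.40 on arrays 1 and 2.

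Of 19 genes of red cell maturation and metabolism, 7 were positive and 0 negative on all arrays, 0 passed limma's threshold (4 positive unadjusted) and the median was 0.22, which turned negative (-0.023) without array 2. Trim10, a ubiquitin ligase of red cell precursors, had 2.07, 1.95 and 1.41, a mean of 1.81 ± 0.35. Bnip3l, which clears mitochondria from maturing red cells, had 0.59 ± 0.23. The glucose transporter gene Slc2a1 had 5.44 ± 0.89 and the carbonic anhydrase gene Car2 had 2.70 ± 0.18. Their limma adjusted p lay between 0.197 and 0.516. The other 12 genes of this list were mixed in sign. They include Tal1 and Add2, which are also counted in the regulator and membrane lists.

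**Figure D4:**
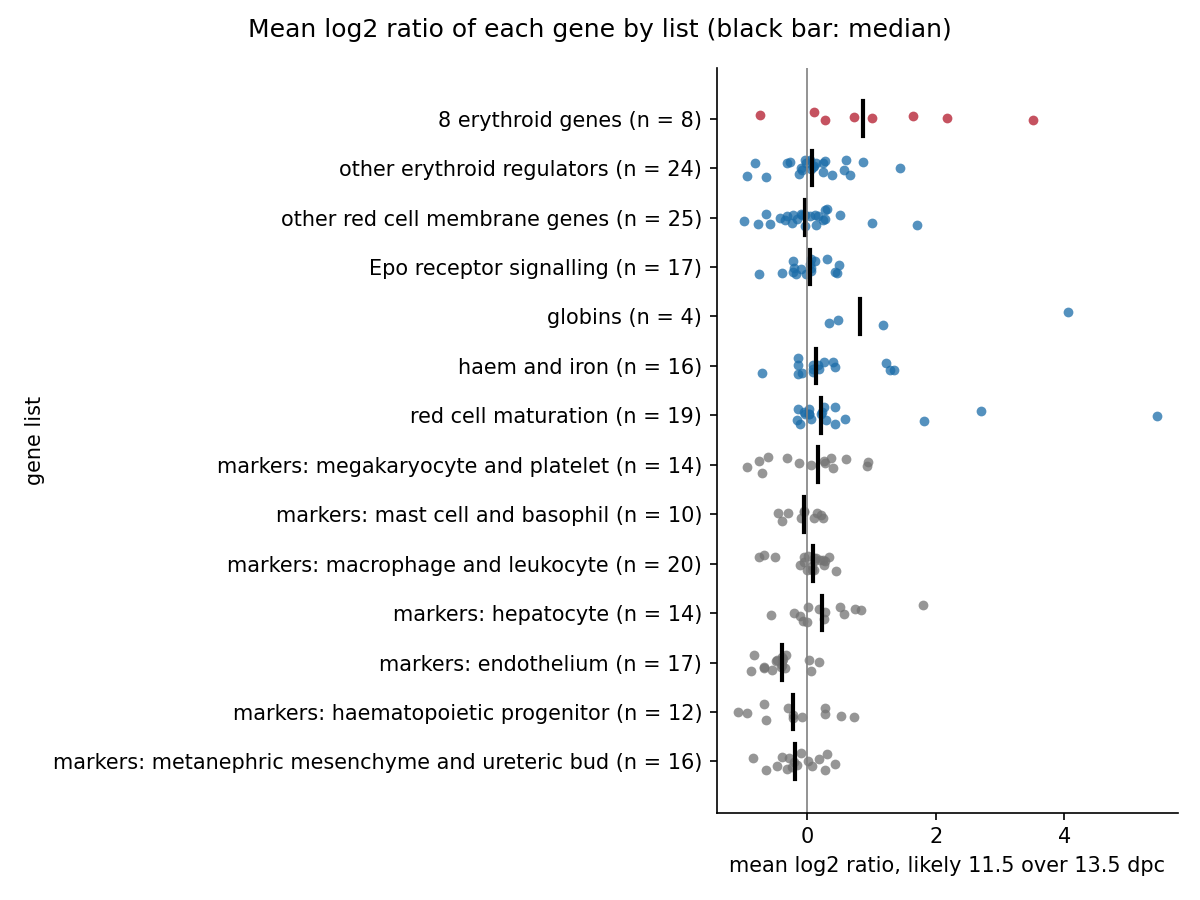
Mean log2 ratio over 3 arrays (likely 11.5 over 13.5 dpc) of each gene in the 8 erythroid genes (red), 6 lists of the red cell pathway (blue) and 7 lists of cell type markers (grey), with list medians as black bars. The medians of the 8 genes and of the 4 globins are 0.86 and 0.82, and those of the other lists lie between -0.40 and 0.22.

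Markers of other cells that express some of these genes, or that bring them with blood, were read beside them. Of 14 markers of megakaryocytes and platelets, which also use Gata1 and Nfe2, 5 were positive and 4 negative on all arrays, with a median of 0.16 that turned negative without array 3. Among them Clec1b had 0.95 ± 0.33 and Tubb1 0.93 ± 0.22, while Itga2b had -0.95 ± 1.39, with -2.55 on array 1, and Rab27b had -0.70 ± 0.61. Of 12 markers of haematopoietic progenitors 3 were positive and 4 negative, with a median of -0.23 that was -0.026 with array 3 turned. Runx1, Myb and Gata2 are counted both here and among the other regulators, and Kit both here and in erythropoietin signalling. The progenitor markers included Meis1 (0.73 ± 0.14), Mycn (-0.67 ± 0.13) and Myb (-0.65 ± 0.53). Of 10 mast cell markers 2 were positive and 0 negative, with a median of -0.055; Cpa3 had 0.25 ± 0.06 and Cma1 0.22 ± 0.24.

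Markers of macrophages and other leukocytes gave 6 positive and 2 negative of 20 and a median of 0.088. Their means ranged from -0.75 (Itgam) to 0.45, with Cd53 at -0.67, Fcer1g at 0.33 and Aif1 at 0.28. Hepatocyte markers, read because the fetal liver makes red cells, gave 3 positive and 1 negative of 14 and a median of 0.22. That median was -0.18 with array 3 turned, -0.044 without array 2 and -0.0035 without array 3. Afp had 0.28 ± 0.22, Ttr 0.57 ± 0.35 and Alb -0.57 ± 0.33, while Fgb had 4.74 on array 3 and 0.11 and 0.54 on arrays 1 and 2. Of 17 endothelial markers 12 were negative on all arrays, against 18.5% of all rows, and 1 was positive, with a median of -0.40. With array 3 turned 1 was negative on all arrays and the median was -0.14. Icam2 had -0.83 ± 0.10, Cldn5 -0.89 ± 0.45, Tek -0.68 ± 0.43 and Pecam1 -0.67 ± 0.50.

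Of 16 markers of metanephric mesenchyme and ureteric bud, 8 were negative and 3 positive, with a median of -0.19 that was -0.066 without array 1 and -0.082, with 3 negative, when array 3 was turned. Cited1 had -0.85 ± 0.37, Pax2 -0.64 ± 0.55, Emx2 -0.48 ± 0.25 and Osr1 0.42 ± 0.14. In these 7 marker lists 0 genes passed limma's adjusted threshold. At an unadjusted p under 0.05 there were 5 negative endothelial markers, and 3 positive and 1 negative megakaryocyte markers. In the other lists there was at most 1 in each direction. Of all 19015 rows, 793 positive and 964 negative lay under the same unadjusted p. A ratio carries no level, so summed levels per age, and whether any marker was absent, cannot be read. The part of blood content, or of any of these cell types, in the ratios of Klf1, Ermap, Rhd and Hemgn was not tested.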

How the data were processed

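Both ages were measured together on each of 3 two-channel arrays, which form 1 group. The authors deposited log2 ratios; 2 raised to each value between -3 and 2 was a whole multiple of 0.001 in 100% of cases (within 0.02 of a step). The labels name ImaGene 5.5 as the image analysis software. They record both print-tip loess with a normalisation between arrays in R, and a Lowess curve over 20% of the data with control values under 10 set to 10; the sources used here do not say which of these made the deposited values. Without intensities, dim or saturated spots could not be assessed, and the number of arrays limits the precision. Of 22702 features, 883 control, blank and other features were left out. Symbols were checked by Entrez identifier against the GRCm38.p6 gene table (15970 of 16656 features with 1 symbol matched, 0 renamed), and features of 1 gene with values on all 3 arrays were averaged. Array 3 was used as deposited. A two-sided moderated test of each row's mean against 0 was run in limma 3.58.1 (R 4.3.3, functions lmFit and eBayes). It used Benjamini-Hochberg adjustment over 19015 rows and gave the background only. The test was also run on these values shuffled over rows, with known shifts added to some rows and their spread narrowed. Because of that narrowing, the run does not show how often the test would find such shifts in the data. On the data, limma's lowest adjusted p over all rows was 0.197, so 0 rows passing does not show equal levels at both ages.

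The members and lists were chosen with earlier results of these data known. Named beside the 8 genes were, in each other list, the 4 genes with the largest absolute mean among those with 1 sign on all arrays, the nearest measured neighbours on the chromosome, and the 5 genes whose ratios were most like the median of the 8. Alternatives were each array left out, array 3 turned, median, scale and quantile normalisation, a running median over 401 features along the library, 1 feature per gene, values on 2 arrays, a dye term, an ordinary one-sample test and other fold thresholds.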

Additional observations from a re-analysis of the deposited data

How the results depend on the processing

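The test of all rows passed 0 under every alternative run, with 736 to 2669 at an unadjusted p under 0.05. Klf1, Ermap, Rhd, Hemgn, Nfe2, Epb42 and Gata1 kept the sign of their mean in each of 11 alternatives. These hold the Nfe2 feature at library position 836 alone (1.74) but not that at 7367, whose mean is -0.30. Epor kept its sign in all but 1 of the 11, with -0.075 when array 3 was turned. Taking 1 feature per gene changed only Nfe2 of the 8 means, and allowing values on 2 arrays changed none. Neither alternative is therefore a check on the signs of the other genes. With array 3 turned, the median of the 8 genes was 0.47, 0 of them were at least 2-fold on every array with 1 sign (3 as deposited), and 42 rows were (130 as deposited). The median was 1.32 with the first feature of each gene, and also 1.32 with the Nfe2 feature at library position 836 alone, since Nfe2 is the only 1 of the 8 read by several features; it was 0.64 with the feature at 7367 alone and 1.01 without Nfe2. Without 1 array it ran from 0.63 to 1.06 (0.86 in full). Medians of the hepatocyte, mast cell, megakaryocyte, membrane, maturation and erythropoietin signalling lists changed sign under some alternatives. The count of rows at least 2-fold was 266 to 341 with 1 array left out, a rule on 2 arrays in place of 3, 479 at 1.5-fold and 28 at 3-fold. The means of Klf1 ran from 0.76 to 2.65, of Ermap from 1.28 to 3.66, of Rhd from 0.69 to 2.20 and of Hemgn from 0.18 to 1.17 over the alternatives, with the lowest each time for array 3 turned. With array 3 turned, medians of the globins (0.34), endothelial markers (-0.14), haematopoietic progenitor markers (-0.026) and kidney markers (-0.082) shrank. The equal weighting of both dye orders, the choices for Nfe2, and ranks and sign counts with array 3 turned were made after the data were seen. Each ratio already pairs both ages on 1 array, so the test against 0 is a paired one. Depth is unknown for these arrays, and low signal could not be assessed.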

Other observations

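Ermap and Slc2a1 are close neighbours on mouse chromosome 4 in the RefSeq gene order, with 2 genes between them, of which Zfp691 is the 1 coding gene; neither has a row here. Slc2a1, the main glucose transporter of many fetal cells, ranked 1 of 19015 rows by mean log2 ratio (5.44 ± 0.89), the embryonic globin Hbb-bh1 ranked 2 and Ermap ranked 3. With array 3 turned the order of these 3 changed, with Hbb-bh1 at rank 23 (1.53), Ermap at 60 (1.28) and Slc2a1 at 97 (1.20). Svbp, the neighbour of Ermap on its other side, had 0.21 ± 0.18. Over the 16 nearest measured neighbours of the 8 genes, 7 were positive, 2 negative and 7 mixed over the arrays. Of all rows, 16.8% were positive and 18.5% negative on all 3 arrays. The median of these neighbours was 0.17. Apart from Slc2a1, the neighbours' means ran from -0.60 for Dnase2a, next to Klf1, to 0.64 for Tgm5, next to Epb42. Rsrp1, near Rhd, had 0.55 ± 0.15, and Anp32b, next to Hemgn, 0.23 ± 0.07. Gata1's neighbours Hdac6 and Glod5 had -0.0059 and 0.17, and Gcdh, before Klf1, had -0.0051. Nfe2 lies between Hnrnpa1 (-0.22) and Copz1 (-0.46), and Epor between Swsap1 (-0.064) and Rgl3 (-0.49). Trmo, next to Hemgn, had 0.17, Maco1, next to Rhd, 0.24, and Ccndbp1, next to Epb42, 0.58. Hemgn, Ermap and Rhd are 3 of the 8 genes on chromosome 4, which holds 5.77% of 14202 named rows with a chromosome.

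The 5 genes whose 3 ratios lay nearest to the median profile of the 8 (0.78, 1.34 and 0.76 on arrays 1, 2 and 3), by root mean square difference over the 3 arrays, were Arl16 (0.098), 1700063H04Rik (0.10), Acss1 (0.11), Gnb1-ps3 (0.11) and 4930430F08Rik (0.13). Of single members, Klf1 was nearest to Ptger3 (0.17) among all named genes and to Rhd (0.55) among the 8. Ermap's nearest gene was Car2 (0.81).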
